A study of Mus musculus with 9 samples.

Results

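Gene expression in the mouse thyroid was compared between 10 and 6 months of age. Of the 9 arrays of the series, 6 enter this comparison as single pools: 3 were hybridised with RNA pooled from thyroids of mice aged 10 months and 3 with RNA pooled at 6 months. At each age there was 1 pool of wild-type thyroids, 1 pool of E7 transgenic thyroids and 1 pool of RET-PTC transgenic thyroids, so the arrays are paired by genotype. The 3 pools of 2 months entered the fit, which takes its error from all 9 arrays, and are shown beside the later ages where they help to read them. E7 is the human papillomavirus protein that binds the retinoblastoma protein, and RET-PTC is a fusion of the RET receptor kinase found in papillary thyroid cancer. The labels give the wild type no transgene and name no strain, no promoter driving either transgene and no particular RET fusion. How many mice made a pool, their sex and the time of day are unstated in the labels. The study asked how expression moves on the way to thyroid carcinoma, and this comparison shows what differed between the later ages in all genotypes and in each.

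The thyroid is built of follicles, whose epithelial cells take up iodide through the transporter encoded by Slc5a5 and store hormone on thyroglobulin. Calcitonin-producing C cells lie between the follicles, and parathyroid, thymus, fat, lymph node, trachea and strap muscle lie against the gland. A dissected thyroid can hold some of each. RNA of a whole gland mixes these cells, and in a pool of such glands fewer cells of a type and less RNA per cell cannot be told apart.

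All values are log2 signals, so a difference of 1 is 2-fold. Each of 11370 genes, read by 1 probe set each, was tested. Values under 4 lie near the arrays' lower plateau and are read as bounds. Within a genotype, a value sets a single pool against another and was not tested. Neither could a difference between genotypes be tested. Values given in a row of 3 follow the order wild type, E7, RET-PTC unless the sentence names them.

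The tissue matched its label in all 6 pools. Tg, thyroglobulin itself, was at 15.28, 14.98 and 14.90 at 6 months and at 15.18, 15.10 and 14.90 at 10 months. The fitted difference in Tg was 0.01 ± 0.08 (SE), with a 95% confidence interval from -0.20 to 0.21. Pax8, the thyroid transcription factor, was at 9.59, 10.88 and 10.16 at 6 months and 9.42, 10.94 and 10.13 at 10 months. Tshr, the thyrotropin receptor, was between 7.60 and 8.70 on these arrays. Slc26a4, Nkx2-1, Kcne2 and Thrb, also genes of thyroid cells or of thyroid hormone action, were under 4 on all 9 arrays. Across genes, which are not independent replicates, Pearson's r between the arrays of 6 and 10 months was 0.981, 0.993 and 0.992.

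No gene passed the threshold in the fit over all genotypes. limma called 0 of 11370 genes higher (0.0%) and 0 lower (0.0%) at an adjusted p of 0.05. At an unadjusted limma p of 0.05, 367 genes passed (3.23%), 241 of them higher at 10 months (2.12%) and 126 lower (1.11%). If no gene differed, the share expected to pass equals the threshold itself, and 3.23% lies below it. An unadjusted p under 0.05 thus does not mark out a gene. The smallest adjusted p was 0.54, shared by Morrbid and Mamdc2, followed by 0.676 for Slc26a10. In the same fit and at the same threshold, 6 against 2 months gave 3 genes higher (0.0264%) and 6 lower (0.0528%), and 10 against 2 months gave 16 higher (0.141%) and 18 lower (0.158%). Those comparisons share arrays with the one described here and are no check of it.

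The precision bounds what could have been missed. The median standard error was 0.127, and the median half-width of a 95% confidence interval was 0.306. For 10411 genes (91.6%), the whole interval for the average difference lay inside 2-fold either way. Only 46 genes had a fitted difference of at least 2-fold, 24 higher and 22 lower. Of all genes tested, 1830 were higher at 10 months in all 3 genotypes (16.1%) and 1099 were lower in all 3 (9.67%).

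**Figure D1:**
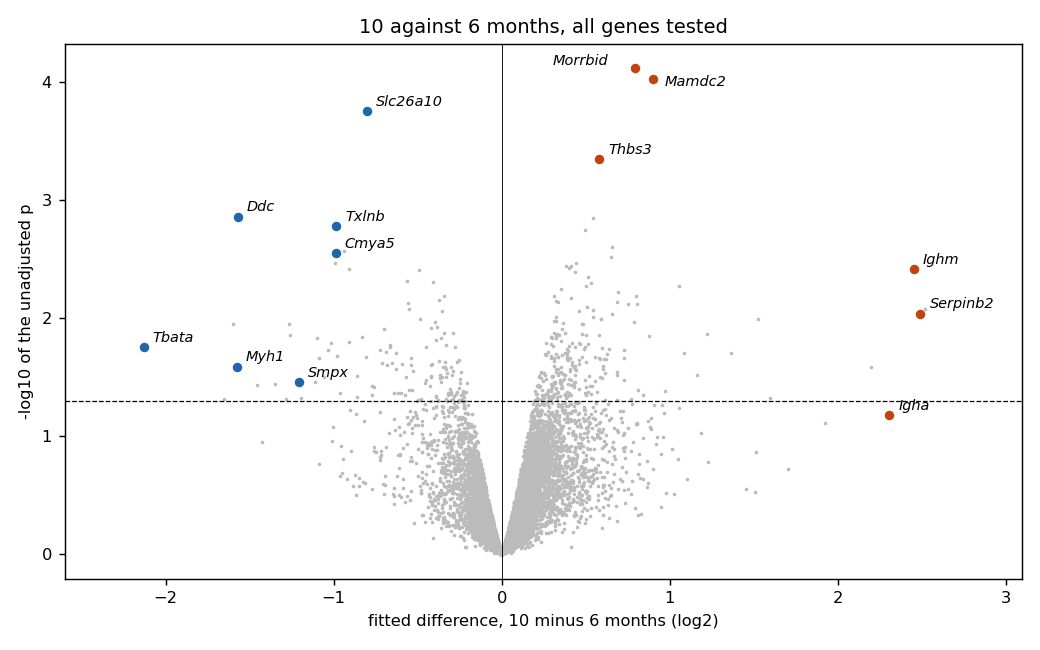
Each point is a gene tested, with the fitted difference between 10 and 6 months (log2, average over genotypes) on the horizontal axis and -log10 of limma's unadjusted p on the vertical axis, and the dashed line marks an unadjusted p of 0.05. Named genes are coloured red where higher and blue where lower at 10 months. None of them passed the adjusted threshold, and the 2 topmost points, Morrbid and Mamdc2, have an adjusted p of 0.54.

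The genes given next had the smallest p among those with one sign in all genotypes, and none passed the threshold. Their rank also depends on how the pools of 2 months fit. Mamdc2, which encodes an extracellular matrix proteoglycan, was at 7.46, 6.16 and 6.76 at 6 months and at 8.47, 6.98 and 7.64 at 10 months. The differences were 1.01, 0.82 and 0.88, and the fitted difference was 0.90 ± 0.11 (SE; limma adjusted p = 0.54). The pools of 2 months were lower still, at 5.38, 3.65 and 4.32, so Mamdc2 stood higher at each later age in every genotype.

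Morrbid, a long non-coding RNA known for regulating the life span of myeloid cells, was at 3.59, 4.50 and 4.91 at 6 months and at 4.55, 5.25 and 5.60 at 10 months. Its fitted difference was 0.80 ± 0.09 (SE; limma adjusted p = 0.54). In each genotype the lowest of the 3 ages was 6 months, since the pools of 2 months were at 5.12, 6.02 and 6.36. Thbs3, a thrombospondin of the extracellular matrix, had the same shape: 7.43, 8.24 and 7.42 at 6 months, 7.97, 8.80 and 8.05 at 10 months and 7.82, 8.85 and 7.85 at 2 months. For Thbs3 the fitted difference was 0.58 ± 0.09 (SE; limma adjusted p = 1.0).

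The other genes ranked highest on the higher side differed by less than 1 on average, apart from Ighm. Mlkl and Ripk3 encode the executioner and the kinase of necroptosis, a form of regulated cell death. Mlkl was at 3.22, 4.65 and 4.09 at 6 months and 4.23, 5.03 and 4.65 at 10 months, a fitted difference of 0.65. Ripk3 was at 5.93, 5.93 and 7.77 and then at 6.24, 6.34 and 8.29, a fitted difference of 0.42. Both were higher at 10 months in each genotype, and Ripk3 was highest in the RET-PTC pools at both ages. Eda2r, a receptor of the tumour necrosis factor family and a p53 target, differed by 0.44 in the fit, but was under 4 in both wild-type pools and in the E7 pool of 6 months. Ppbp, the precursor of a platelet chemokine, was above 4 only in wild type, at 4.46 and 5.28. Sntg2, a syntrophin, differed by 0.50, Slc37a1, a sugar-phosphate transporter, by 0.38 and Mfng, a glycosyltransferase that modifies Notch, by 0.40. Pheta1, which acts in endosome trafficking, differed by 0.54. All of these had a limma adjusted p of 1.0.

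On the lower side, Slc26a10, a member of the anion transporter family of pendrin, came first. It was at 5.65, 4.53 and 4.55 at 6 months and at 4.67, 3.87 and 3.78 at 10 months, and the fitted difference was -0.80 ± 0.11 (SE; limma adjusted p = 0.676). The E7 and RET-PTC pools of 10 months were under 4, so their differences of -0.66 and -0.77 rest on values near the plateau. In wild type and RET-PTC the pools of 2 and 6 months were nearly level, at 5.65 and 5.65 and at 4.50 and 4.55.

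Ddc, the aromatic amino acid decarboxylase of neuroendocrine cells, was at 9.56, 6.80 and 7.46 at 6 months and at 8.16, 4.28 and 6.67 at 10 months. The differences were -1.40, -2.52 and -0.79, and the fitted one was -1.57 ± 0.29 (SE; limma adjusted p = 1.0). Every pool of 10 months was below its own pool of 6 months, while the groups overlapped because genotypes differ in level. Tmem59l was at 6.39, 3.21 and 4.25 and then at 4.94, 2.05 and 3.90, so only its wild-type difference is between values above 4. Abcc8, the sulphonylurea receptor of endocrine cells, differed by -0.34 in the fit, Smg9, of nonsense-mediated decay, by -0.41 and Plagl1, an imprinted zinc finger gene, by -0.37.

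Genes of striated muscle made up much of the remaining lower side. Txlnb, Tmem182 and Cmya5 are muscle-enriched genes, Trdn encodes triadin of the sarcoplasmic reticulum, Synm the intermediate filament protein synemin and Pfkm the muscle phosphofructokinase. Trdn was at 7.37, 6.24 and 7.68 at 6 months and at 6.51, 5.87 and 6.17 at 10 months, a fitted difference of -0.91 ± 0.21 (SE). Cmya5 was at 6.08, 4.91 and 6.71 and then at 5.35, 4.28 and 5.11, a fitted difference of -0.99 ± 0.21 (SE). Pfkm went from 9.03, 8.24 and 8.89 to 8.34, 7.95 and 8.19. Txlnb and Tmem182, with fitted differences of -0.99 and -0.94, were under 4 in part of the pools. Synm differed by -0.49 by the probe set used. A further Synm probe set, at 4 or more on all 6 arrays, gave 0.4, -0.24 and -0.75, so it was higher in wild type. For Trdn, 2 probe sets were at 4 or more on all 6 arrays, and both were lower at 10 months in every genotype.

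By a plain size rule, 1 gene was at least 2-fold higher at 10 months in all 3 genotypes (0.0088%) and 2 genes were at least 2-fold lower in all 3 (0.0176%). The genes on the lower side were Myh1 and Smpx, both of skeletal muscle, and the gene on the higher side was Ighm, the constant region of immunoglobulin M. Myh1 encodes the myosin heavy chain of fast IIx fibres. It was at 10.88, 10.27 and 11.45 at 6 months and at 9.63, 8.79 and 9.45 at 10 months, so the groups did not overlap. The mean was 10.87 ± 0.59 (SD, n = 3) at 6 months and 9.29 ± 0.44 (SD, n = 3) at 10 months. Each SD is over 1 pool per genotype, so it gives the spread between genotypes and not between like pools. Myh1 was thus 2.37-fold, 2.80-fold and 3.99-fold lower, with a fitted difference of -1.57 ± 0.55 (SE; limma adjusted p = 1.0). A further probe set of Myh1 at 4 or more on these 6 arrays gave differences of -1.03, -1.29 and -1.78.

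Smpx, a small protein of muscle costameres, was at 7.47, 6.04 and 7.34 at 6 months and at 6.35, 4.93 and 5.96 at 10 months. The differences were -1.12, -1.11 and -1.38 and the fitted one -1.20 ± 0.45 (SE; limma adjusted p = 1.0). For both genes the pool of 6 months was the highest of the 3 ages in each genotype. At 2 months Myh1 was at 9.45, 6.27 and 9.67, and Smpx was at 6.04, 2.43 and 5.55, so the E7 pool of 2 months held the least of either.

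The sequences upstream of Myh1 and Smpx are shown because these were the genes lower by at least 2-fold in every genotype. Each run is the 250 bases before the annotated start in RefSeq's promoter table for GRCm38.p6, 5′ to 3′ on the plus strand, at chr11:67199852-67200101 for Myh1 and chrX:157698723-157698972 for Smpx. Capitals mark matches, on either strand, to the E-box CANNTG bound by myogenic bHLH factors, to the TATA box TATAAA or to the MEF2 motif of muscle genes.
Myh1: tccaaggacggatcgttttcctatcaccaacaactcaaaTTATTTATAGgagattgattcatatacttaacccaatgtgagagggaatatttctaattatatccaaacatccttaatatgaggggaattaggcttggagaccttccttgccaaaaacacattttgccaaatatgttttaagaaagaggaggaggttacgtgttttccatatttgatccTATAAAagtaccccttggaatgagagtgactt
Smpx: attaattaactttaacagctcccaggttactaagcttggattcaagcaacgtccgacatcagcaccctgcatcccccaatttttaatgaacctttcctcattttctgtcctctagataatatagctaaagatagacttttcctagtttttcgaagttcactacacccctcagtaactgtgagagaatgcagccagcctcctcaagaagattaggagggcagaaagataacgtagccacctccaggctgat
The Myh1 window held 1 match to the MEF2 motif and 2 to TATAAA, 1 of which lies on the other strand inside the MEF2 match, and 0 E-boxes. The Smpx window held 0 matches to any of the 3 motifs. Of 32851 windows of the same length, 66.2% held an E-box, 12.4% a TATA box and 2.92% the MEF2 motif. A match describes letters only and shows no binding.

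The wider muscle list followed the same direction. Of 23 skeletal muscle genes tested, 21 were lower at 10 months in all 3 genotypes, 9 had an unadjusted p under 0.05 on the lower side, and 0 passed the adjusted threshold. Over all genes, 9.67% were lower in all 3 genotypes and 1.11% had an unadjusted p under 0.05 on the lower side. The median difference of the muscle genes was -0.92, against 0.03 over all genes. Within genotypes their median was -0.78, -0.41 and -1.57, and 5, 3 and 23 of the 23 genes were at least 2-fold lower. The shares of all genes at that size were 0.853%, 0.352% and 0.642%. The muscle genes report on the same fibres and are not independent of each other.

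Myh2, the IIa fibre myosin, was at 5.41, 5.37 and 7.23 at 6 months and at 4.61, 4.04 and 4.58 at 10 months. Acta1, skeletal actin, was at 10.22, 10.35 and 11.40 and then at 9.84, 9.64 and 10.05. Tnnc2, the fast troponin C, was at 11.45, 10.88 and 12.08 and then at 10.82, 10.41 and 10.71. The RET-PTC pool of 6 months was the highest of the 6 for each of these genes. Neb, nebulin, differed by -1.02, Actn2 of the Z disc by -1.03 and Myoz1, also of the Z disc, by -0.91 in the fit (limma adjusted p = 1.0 for each).

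The slow-fibre genes Myh7, Tnnt1, Tnni1 and Tnnc1 were under 4 on all 9 arrays. Summed over the list, the muscle level was 12.88 at 2, 13.90 at 6 and 13.12 at 10 months in wild type. In E7 it was 9.71, 13.24 and 12.68, and in RET-PTC 12.54, 14.57 and 13.05. Every genotype had its highest muscle level at 6 months. Muscle is not part of the follicle, and how much muscle each dissection carried was not tested.

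**Figure D2:**
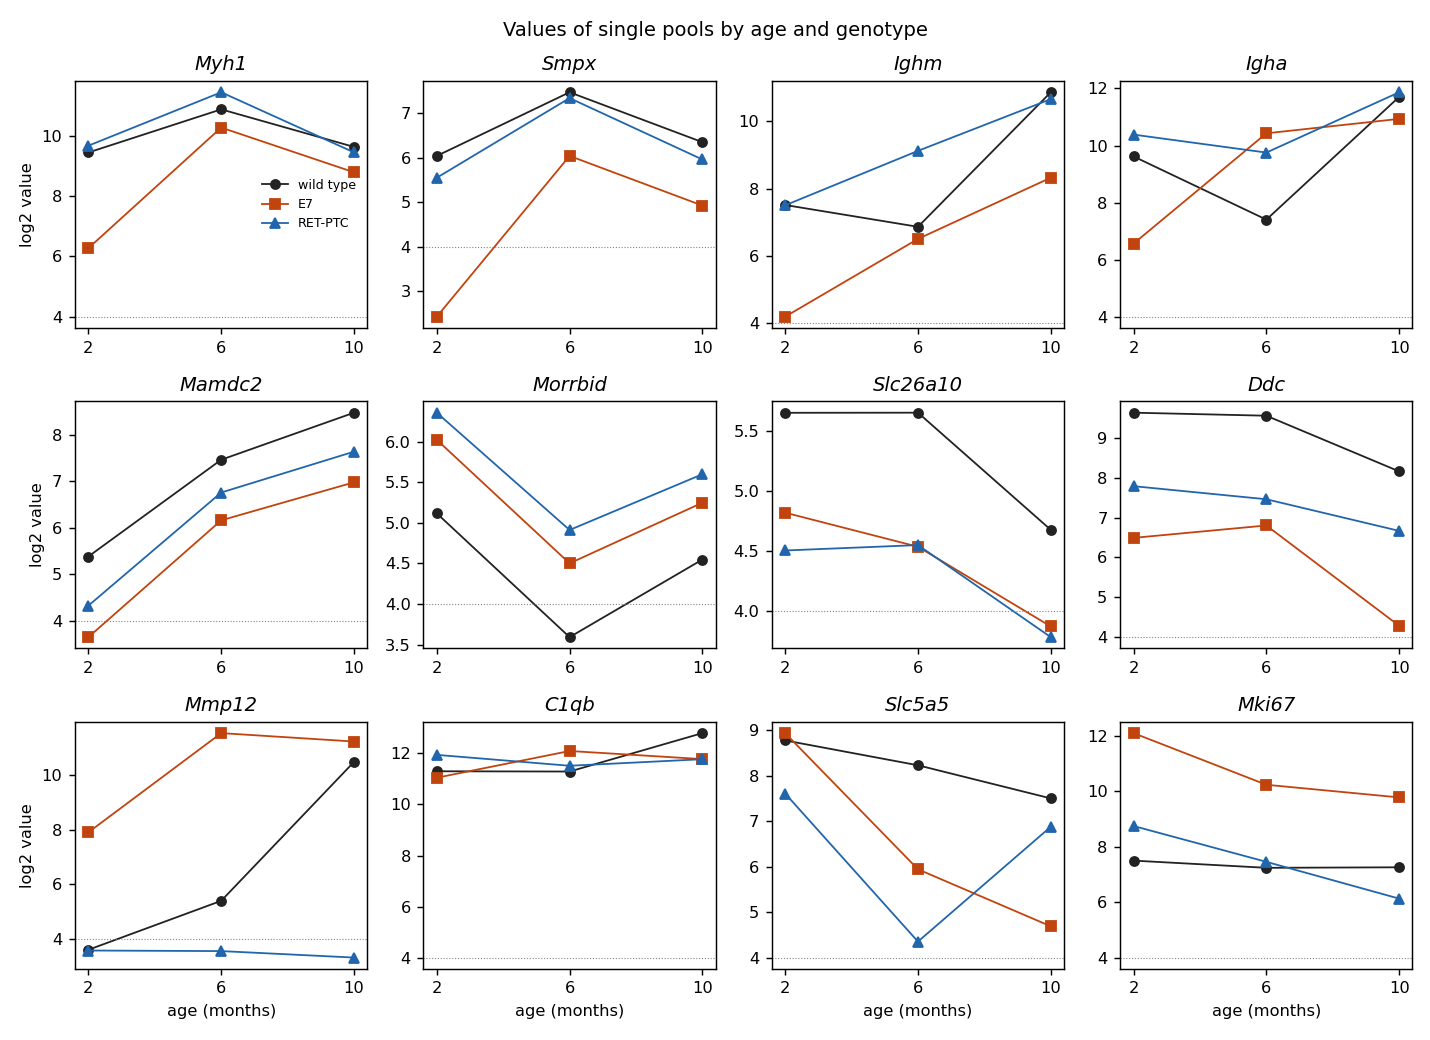
Each panel gives the log2 value of 1 gene (vertical axis) at 2, 6 and 10 months (horizontal axis) in single pools of wild type (black circles), E7 (red squares) and RET-PTC (blue triangles), and the dotted line marks a value of 4. Myh1 and Smpx peaked at 6 months in each genotype, Mamdc2 was higher at each later age, and Mmp12 stood 5.06 higher at 10 than at 6 months in wild type only.

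Immunoglobulin genes were among the largest differences on the higher side. Ighm was at 6.86, 6.50 and 9.12 at 6 months and at 10.87, 8.33 and 10.66 at 10 months. It was 16.0-fold, 3.53-fold and 2.90-fold higher, with a fitted difference of 2.45 ± 0.56 (SE; limma adjusted p = 1.0). Ighm has 11 probe sets, of which 4 were at 4 or more on all 6 arrays. Over those 4 the difference ran from 0.39 to 4.0 in wild type, from 0.01 to 1.82 in E7 and from 1.13 to 2.23 in RET-PTC, so the 2-fold difference in E7 rests on the probe set used.

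Igha, the constant region of immunoglobulin A, was at 7.40, 10.43 and 9.75 at 6 months and at 11.70, 10.93 and 11.87 at 10 months. It was 19.7-fold, 1.42-fold and 4.33-fold higher, and the pools of 10 months all lay above those of 6 months. The fitted difference was 2.31 ± 1.05 (SE; limma adjusted p = 1.0). All 3 Igha probe sets gave close values, from 4.08 to 4.30 in wild type and from 0.47 to 0.60 in E7.

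Jchain, which joins IgA and IgM into polymers, was at 7.02, 8.55 and 8.62 and then at 10.84, 8.81 and 10.31. Iglv1, a lambda light-chain gene, was at 4.53, 4.81 and 4.08 and then at 6.43, 4.50 and 7.28, so it was 3.73-fold higher in wild type and 9.16-fold higher in RET-PTC but not in E7. A kappa variable gene among the largest differences in wild type differed by 4.20, 0.40 and 1.99. Another, among the largest in RET-PTC, was under 4 at 6 months in all 3 genotypes and was at least 5.15-fold higher in wild type and at least 6.99-fold higher in RET-PTC at 10 months. Immunoglobulin genes are near-identical copies, so which variable gene a probe set reads is uncertain.

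The plasma cell list as a whole, with 10 genes tested, had medians of 0.61, 0.23 and 0.36. Its 5 genes higher in all 3 genotypes included Mzb1, a chaperone of antibody-secreting cells, at 5.47, 6.71 and 5.63 and then 5.72, 7.09 and 5.98. Over all genes, 16.1% were higher in all 3. Xbp1, a transcription factor that plasma cells share with other secretory cells, was at 13.34, 13.21 and 12.90 and then 13.21, 13.37 and 13.14. Tnfrsf17, the plasma cell receptor BCMA, was under 4 on all 9 arrays. Only 2 B cell genes could be tested, while 8 others, among them Cd79a, Ms4a1 and Pax5, were under 4 on all 9 arrays. The B cell gene Cd79b was at 7.72, 8.37 and 6.62 at 6 months and 7.06, 8.53 and 6.45 at 10 months. The sum over the plasma cell genes was higher at 10 months in each genotype, by 0.56, 0.23 and 0.68. At 6 months this sum was 13.51, 13.57 and 13.35, to which Xbp1 alone came close. The sum is thus not a measure of plasma cells alone.

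Size of the age difference was uneven over the genotypes. In wild type, 318 genes were at least 2-fold higher at 10 months (2.8%) and 97 at least 2-fold lower (0.853%), with values under 4 set to 4. In E7 the counts were 38 higher (0.334%) and 40 lower (0.352%). In RET-PTC they were 37 higher (0.325%) and 73 lower (0.642%). The standard deviation of the difference over genes was 0.441 in wild type against 0.279 and 0.28 in the transgenic pairs.

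Of 550 genes past 2-fold in some genotype, 502 were so in 1 genotype, 43 in 2 and 5 in all 3. Among these, 16 went in opposite directions in different genotypes. The genotype differences share no array, and across genes they correlated at 0.036 between wild type and E7, 0.128 between wild type and RET-PTC and 0.098 between E7 and RET-PTC. With 1 pool per genotype and age, a property of the genotype and a peculiarity of 1 pool cannot be told apart. The median difference over all genes was -0.01, 0.04 and 0.03 in the 3 genotypes, and within 5 equal bins of signal level it stayed between -0.04 and 0.07.

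**Figure D3:**
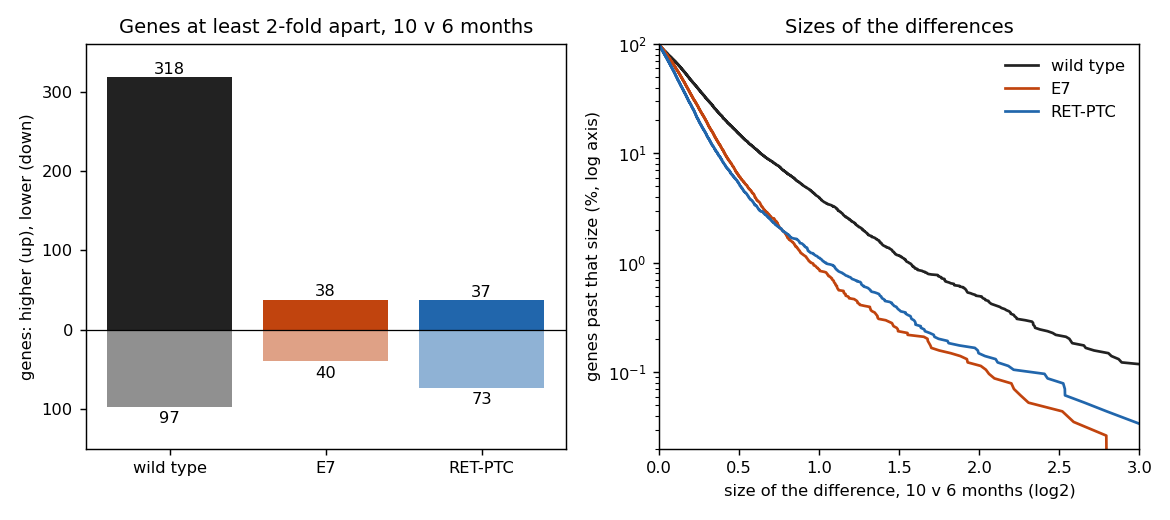
Left, the number of genes at least 2-fold higher (bars up) or lower (bars down) at 10 than at 6 months in wild type, E7 and RET-PTC, single pools. Right, the share of the 11370 genes (percent, log axis) whose difference exceeds the size on the horizontal axis (log2). The wild-type pair had 318 and 97 such genes against 38 and 40 in E7 and 37 and 73 in RET-PTC.

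In the wild-type pair, macrophage genes were higher at 10 months. Of 24 macrophage genes tested, 22 were at least 2-fold higher in the wild-type pair, against 0 in E7 and 0 in RET-PTC. The shares of all genes at that size were 2.8%, 0.334% and 0.325%. The macrophage medians were 1.38, -0.07 and 0.24. The fit over all genotypes called none of the macrophage genes. C1qb, of the first complement component, was at 11.29, 12.10 and 11.52 at 6 months and at 12.80, 11.78 and 11.77 at 10 months. Lyz2, lysozyme, was at 11.41, 13.68 and 11.67 and then at 12.95, 13.60 and 11.81. Ctss, the lysosomal protease cathepsin S, was at 12.18, 13.58 and 12.47 and then at 13.57, 13.36 and 12.69. Wild type was the lowest of the 3 genotypes at 6 months for these genes, and for C1qb and Ctss it was the highest at 10 months.

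Summed over the list, the macrophage level was 14.25, 14.10 and 15.50 at 2, 6 and 10 months in wild type. In E7 it was 13.89, 15.44 and 15.29, and in RET-PTC 14.90, 14.37 and 14.57. The wild-type pool of 10 months thus stood next to both later E7 pools. The E7 pools had their difference between 2 and 6 months.

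Mmp12, the macrophage metalloelastase, was the largest difference on the higher side in wild type. It was at 5.40 at 6 months and 10.47 at 10 months in wild type, 33.5-fold higher, and at 11.52 and 11.21 in E7. In RET-PTC it was under 4 at both ages. The fitted difference over all genotypes was 1.51 with a 95% confidence interval from -1.67 to 4.68.

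Chemokines, antigen presentation and interferon genes also had their highest medians in wild type, while the transgenic pairs differed from list to list. Of 14 chemokine and cytokine genes, 6 were at least 2-fold higher in the wild-type pair, against 0 in E7 and 1 in RET-PTC, with medians of 1.12, 0.08 and 0.34. Of 16 antigen presentation genes, 7 were at least 2-fold higher in wild type, and the medians were 0.88, 0.25 and -0.01, with 14 genes higher in E7 and 7 in RET-PTC. Of 27 interferon response genes, 9 were at least 2-fold higher in wild type. The interferon medians were 0.76, 0.07 and -0.09, with 19 genes lower in RET-PTC. The shares of all genes at least 2-fold higher were 2.8%, 0.334% and 0.325%. Over all genes, 59.0% were higher in E7, while 56.3% were higher and 41.4% lower in RET-PTC. Nlrc5, the activator of MHC class I genes, was at 5.12, 6.84 and 6.08 at 6 months and at 7.16, 7.34 and 6.22 at 10 months. Tap1, the peptide transporter, was at 7.0, 7.91 and 7.75 and then at 8.13, 8.15 and 7.72. Gbp2, an interferon-induced GTPase, was at 9.92, 10.55 and 10.03 and then at 11.13, 10.81 and 10.24. For each of these, wild type held the lowest value at 6 months.

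Stromal genes in the same wild-type pair were higher to a lesser degree. The median over 27 fibroblast and matrix genes was 0.56, 0.06 and 0.00, and over 19 endothelial genes it was 0.59, 0.12 and -0.08. Vim, vimentin, was at 12.74, 13.02 and 12.65 at 6 months and at 13.65, 12.86 and 12.62 at 10 months. Col6a2, a chain of collagen VI, was at 9.50, 9.66 and 9.21 and then at 10.19, 9.72 and 9.67. Lyve1, a marker of lymphatic endothelium and some macrophages, was at 7.01, 6.77 and 7.20 and then at 7.77, 6.83 and 7.69.

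Secretory and mitochondrial genes went the other way in wild type. Of 22 genes of the unfolded protein response, which keeps the endoplasmic reticulum able to fold secreted proteins, 21 were lower in wild type, while 22 of 22 were higher in E7 and 21 of 22 in RET-PTC. The medians were -0.42, 0.19 and 0.22. Over all genes, 52.0% were lower in wild type, 59.0% were higher in E7 and 56.3% were higher in RET-PTC. Hspa5, the chaperone BiP, was at 14.82, 14.31 and 14.08 at 6 months and at 14.54, 14.47 and 14.41 at 10 months. Calr, calreticulin, was at 14.07, 13.14 and 13.41 and then at 13.80, 13.36 and 13.59. Both genes were thus closer together over genotypes at 10 than at 6 months.

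Oxidative phosphorylation genes differed by less, with medians of -0.21, 0.13 and 0.11 over 24 genes. In wild type 0 of 24 were higher, against 18 in E7 and 18 in RET-PTC. Cyc1, cytochrome c1, was at 12.81, 11.75 and 12.16 and then at 12.59, 11.91 and 12.42. In the wild-type pair the macrophage sum differed by 1.41. The sum of the unfolded protein response genes differed by -0.36 and that of oxidative phosphorylation by -0.19. Whether a larger share of RNA from other cells lowered the latter sums was not tested.

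**Figure D4:**
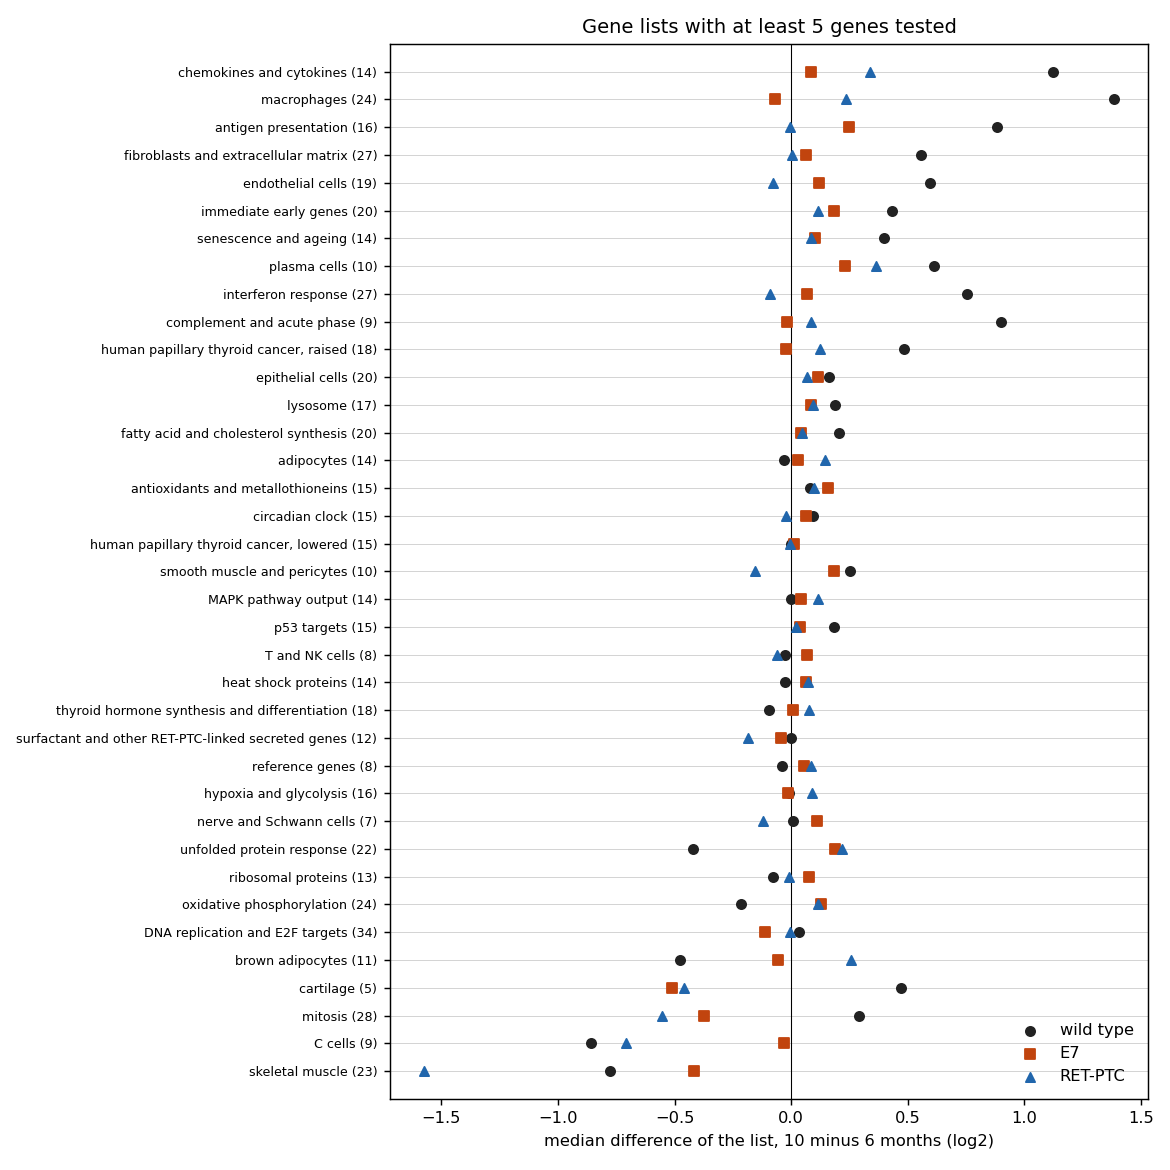
Each row is a gene list with at least 5 genes tested (number in brackets), and symbols give its median difference between 10 and 6 months (log2) in wild type (black circles), E7 (red squares) and RET-PTC (blue triangles), 1 pool against 1 pool. Skeletal muscle, at -0.78, -0.41 and -1.57, lay left of zero in all 3 genotypes, and macrophages, at 1.38, -0.07 and 0.24, lay far right in wild type only.

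Cell division genes were lower at 10 months in both transgenic genotypes. Of 28 mitosis genes, 27 were lower in E7, 24 in RET-PTC and 8 in wild type, against 39.9%, 41.4% and 52.0% of all genes. The mitosis medians in that order were -0.37, -0.56 and 0.29. With values under 4 set to 4, these medians were -0.37, -0.19 and 0.06, so much of the last pair of values rests on signals near the plateau. The fitted median was -0.28. Without the wild-type pool of 10 months it was -0.73, beyond the median of either transgenic pair. That fit still draws on the pools of 2 months, so -0.73 is not a difference between 10 and 6 months in any pair. Mki67, the proliferation marker Ki-67, was at 7.24, 10.23 and 7.45 at 6 months and at 7.26, 9.78 and 6.13 at 10 months. Nusap1, a spindle protein, was at 4.31, 7.38 and 5.23 and then at 4.23, 7.04 and 4.19. Kif11, a spindle motor, was at 7.02 and 5.91 in E7 but under 4 in both RET-PTC pools and in the wild-type pool of 10 months. The summed mitosis level in E7 was 14.53, 12.76 and 12.35 at the 3 ages and in RET-PTC 11.83, 10.37 and 9.89, so most of the distance lay between 2 and 6 months.

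Genes of DNA replication, which E2F factors control, differed by less. Their medians over 34 genes were 0.03, -0.11 and -0.01, and 10, 22 and 17 of them were lower. Over all genes, 52.0%, 39.9% and 41.4% were lower. Mcm6, a helicase subunit, was higher in each genotype by the probe set used. It was at 9.49, 11.82 and 10.02 at 6 months and at 9.91, 11.96 and 10.13 at 10 months. A further Mcm6 probe set, at 4 or more on all 6 arrays, gave 0.67, -0.54 and -0.04, so it was higher in wild type only. Pcna, the polymerase clamp, was at 11.55, 12.71 and 11.83 and then at 11.56, 12.72 and 11.92. The fitted difference for Pcna was 0.03 ± 0.14 (SE).

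**Figure D5:**
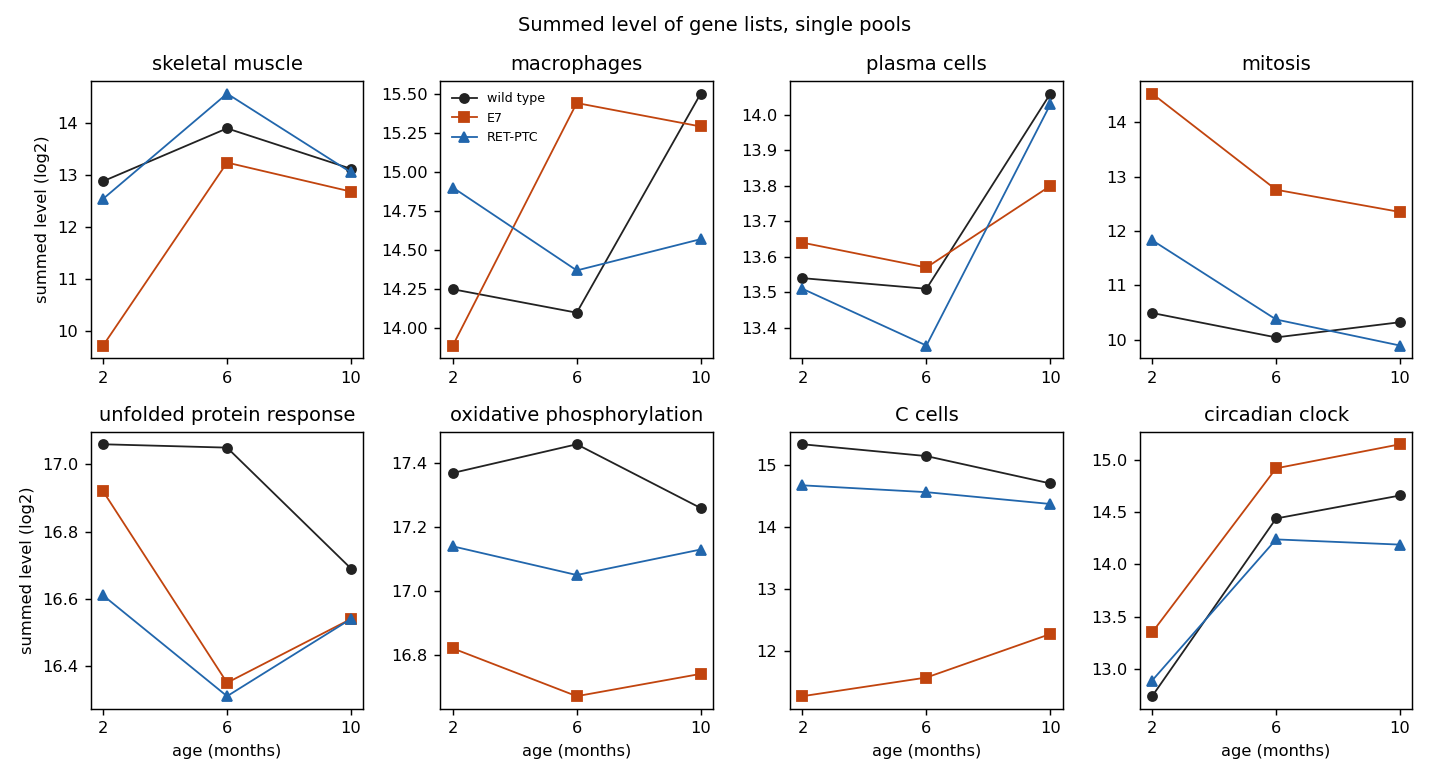
Each panel gives the log2 of the summed signal of a gene list (vertical axis) in single pools at 2, 6 and 10 months (horizontal axis) for wild type (black circles), E7 (red squares) and RET-PTC (blue triangles). The skeletal muscle sum peaked at 6 months in each genotype, the macrophage sum went from 14.10 to 15.50 in wild type between 6 and 10 months, and the mitosis sum in E7 went from 14.53 to 12.35 between 2 and 10 months.

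Thyroid genes were nearly level on average, with medians of -0.10, 0.01 and 0.08 over 18 genes. Slc5a5, the iodide transporter, was the member with the largest differences in E7 below zero and in RET-PTC above it. From 6 to 10 months it went from 8.23 to 7.50 in wild type, from 5.94 to 4.69 in E7 and from 4.35 to 6.88 in RET-PTC. The E7 difference was thus 2.38-fold lower and the RET-PTC difference 5.75-fold higher. At 2 months the pools were at 8.77, 8.93 and 7.61, so the RET-PTC pool of 6 months was the lowest of that genotype. A further probe set, near the plateau, gave 0.06, -0.56 and 1.13. The fitted average was 0.18 with a 95% confidence interval from -1.82 to 2.18. Duoxa1, the maturation factor of the thyroid oxidase, was at 5.48, 6.84 and 6.33 and then at 5.99, 8.21 and 6.33, so its difference lay in wild type and E7.

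Most C cell genes were lower at 10 months in wild type and RET-PTC. Of 9 genes tested, 8 were lower in wild type, 8 in RET-PTC and 6 in all 3 genotypes, and the medians were -0.86, -0.03 and -0.71. Over all genes, 52.0% were lower in wild type, 41.4% in RET-PTC and 9.67% in all 3. Cpe, a prohormone-processing enzyme, was at 11.14, 8.86 and 10.37 at 6 months and at 10.87, 8.52 and 9.91 at 10 months, a fitted difference of -0.35 ± 0.10 (SE; limma adjusted p = 1.0). Scg3, a granin, was at 10.87, 4.64 and 8.58 and then at 9.92, 4.62 and 7.72. Snap25, of vesicle fusion, was at 7.57 and 6.58 in wild type and 4.78 and 3.86 in RET-PTC, and it was under 4 in E7. In E7 most of these genes were low or under 4 at both ages. Scg5, a chaperone of prohormone processing, was higher in all 3 genotypes, by 0.04, 0.05 and 0.26. Chga, a granin that parathyroid cells share, was higher in E7, with values of 13.98, 10.64 and 13.95 at 6 months and 13.52, 11.82 and 13.73 at 10 months. Pth, parathyroid hormone, was at 14.78, 13.46 and 14.74 and then at 14.66, 14.05 and 14.66, so in E7 Chga and Pth were both higher at 10 months. Whether the amount of parathyroid taken with the glands differed was not tested.

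Immediate early genes, which cells switch on within minutes of a stimulus, were more often higher than lower. Of 20 immediate early genes, 10 were higher in all 3 genotypes and 0 lower in all 3, with medians of 0.43, 0.18 and 0.11. Over all genes, 16.1% were higher and 9.67% lower in all 3. Atf3, a stress-induced transcription factor, was at 5.52, 7.93 and 5.79 at 6 months and at 6.87, 8.67 and 6.61 at 10 months. Fos was at 8.89, 10.76 and 10.18 and then at 9.55, 11.41 and 10.59. Among 15 p53 targets the medians were 0.18, 0.04 and 0.02, of which the transgenic values are near those of all genes. With values under 4 set to 4, the wild-type median was 0.08. Over 14 heat shock proteins, which belong to another stress response, the medians were -0.03, 0.06 and 0.07. Cdkn1a, the cell cycle inhibitor p21, was at 8.63, 10.11 and 9.98 and then at 9.52, 10.33 and 10.28 by the probe set used. A further Cdkn1a probe set, at 4 or more on all 6 arrays, gave -0.11, -0.09 and 0.76, so it was higher in RET-PTC only. Cdkn2b, the inhibitor p15 known to accompany senescence, was at 6.33, 7.70 and 7.46 and then at 6.74, 8.14 and 7.70. In the fit the differences were 0.97 for Atf3, 0.47 for Cdkn1a and 0.37 for Cdkn2b, each with an unadjusted p under 0.05 and a limma adjusted p of 1.0.

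Epithelial keratins were slightly higher in most pairs. Krt7 was at 10.84, 10.70 and 11.03 at 6 months and at 11.20, 11.23 and 11.31 at 10 months, a fitted difference of 0.39 ± 0.15 (SE). Krt19, a keratin used as a marker of papillary thyroid cancer, was at 10.19, 10.72 and 11.09 and then at 10.68, 11.05 and 11.26. All 3 pools of 10 months lay above all 3 of 6 months for Krt7 but not for Krt19. The epithelial list, with 20 genes tested, had medians of 0.16, 0.11 and 0.07. The cholesterol synthesis genes Sqle and Cyp51 were also higher in each genotype by the probe sets used, with fitted differences of 0.60 and 0.32. A further Cyp51 probe set, at 4 or more on all 6 arrays, gave 0.57, -0.1 and 0.49. Ccnd1, cyclin D1, is a readout of the MAPK pathway that RET-PTC feeds. By the probe set used it was at 8.94, 8.47 and 9.95 and then at 9.78, 8.75 and 10.08, with its largest difference in wild type. Further Ccnd1 probe sets at 4 or more on all 6 arrays gave 0.24, -0.41 and 0.28, and 1.2, -0.09 and 0.3. Both were lower in E7. The 14 genes of MAPK output had medians of 0.00, 0.04 and 0.12.

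Single pools held further large values. Mucl2 was at 9.66 in wild type at 6 months and 10.84 in RET-PTC at 10 months, and was near or under 4 on the other 7 arrays. It was at least 50.5-fold lower at 10 months in wild type and at least 114.5-fold higher in RET-PTC. In wild type, Actc1, cardiac actin, went from 8.13 to 5.26, Sln, which regulates the muscle calcium pump, from 6.96 to 4.13, and Ckmt2, the sarcomeric mitochondrial creatine kinase, from 9.20 to 6.73.

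Some thymic genes were lower at 10 months in wild type and RET-PTC. Of 4 thymic epithelial genes tested, 2 were lower in all 3 genotypes, Ccl25 and Prss16. So were 2 of 3 thymocyte genes, Satb1 and Rmnd5a. Over all genes, 9.67% were lower in all 3. Tbata, expressed in thymic stroma, was at 7.44 and 5.21 in wild type and at 8.12 and 4.21 in RET-PTC at 6 and 10 months, and under 4 in E7. Ccl25, a thymic chemokine, was at 5.41 and 4.24 in wild type and 7.10 and 4.30 in RET-PTC. In E7 it was under 4 at both ages, at 2.96 and 2.87, so its direction there cannot be read. Prss16, a protease of the thymic cortex, was at 5.61, 5.48 and 6.59 and then at 4.05, 5.20 and 4.06. The other thymic epithelial genes tested were Ctsl, a cathepsin that many cells express, with differences of 0.00, -0.18 and -0.01, and Krt5, a basal keratin, with 0.00, 0.25 and -1.54. Cd1d1, which thymocytes share with other cells, differed by 0.22, -0.30 and 0.11. The thymic epithelial markers Psmb11 and Aire and the thymocyte genes Ptcra and Rag2 were under 4 on all 9 arrays. How much thymus each pool carried was not tested.

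In E7, Serpinb2, a serine protease inhibitor of macrophages and epithelia, went from 4.0 to 6.59, with 4.24 to 7.96 in wild type and 3.43 to 4.60 in RET-PTC. It was higher at 10 months in every genotype, with a fitted difference of 2.49 ± 0.68 (SE; limma adjusted p = 1.0). Gpr83, a G protein-coupled receptor, went from 5.43 to 7.74 in E7 but from 8.89 to 7.31 in wild type and from 10.19 to 9.54 in RET-PTC. All 3 pools of 2 months held Gpr83 under 4, at 2.25, 2.27 and 2.25. Serpinb11 went from 4.14 to 6.36 in E7 and Mid1, a microtubule-associated ubiquitin ligase, from 3.76 to 5.77.

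On the lower side in E7, Cxcl13, the chemokine that draws B cells, went from 9.64 to 5.61, while it was at 12.31 and 11.44 in wild type and at 9.77 and 9.73 in RET-PTC. Rab6b went from 6.49 to 3.70, Fmod, the matrix proteoglycan fibromodulin, from 9.04 to 6.78, and Cuedc1 from 6.13 to 4.03. In RET-PTC, Cyp27b1, the enzyme that activates vitamin D, was at 4.04 and 7.01, and was under 4 at both ages in the other genotypes. Irs4, an insulin receptor substrate, was at 9.27 and 6.73 in RET-PTC and under 4 in the other genotypes at both ages.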

How the data were processed

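The authors deposited log2 values of 45101 probe sets for 9 Affymetrix arrays, made with GCRMA per the submitters' processing notes, version not given in the sources used here. GCRMA sets arrays to nearly one distribution (medians 3.85 to 3.95), so a shift shared by most genes would not be visible. Probe sets with several symbols (932) or none (9160) and 64 controls were left out. Each of 18193 genes was read by its probe set of highest mean, and the 11370 with a value of at least 4 on at least 3 arrays were tested. For 2-fold counts and folds, values under 4 were set to 4.

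limma 3.58.1 in R 4.3.3 fitted genotype, which pairs the arrays, and age on all 9 arrays (lmFit, eBayes, 4 residual degrees of freedom), with Benjamini-Hochberg adjustment at 0.05. The p-values rest on residual variation, since no genotype and age has a second pool, and the number of arrays limits the precision. The test was checked on simulated data.

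The comparison and the 49 gene lists were chosen with earlier results of these data known. Named genes were the 12 per direction with the smallest p and one sign in all genotypes (none passed the threshold), the 5 largest per direction in each genotype, those past 2-fold in all genotypes, and up to 4 members of a list by p and 3 by level. Pax8, Tshr and genes given as under 4 were added as tissue checks. Alternatives varied the arrays, filter, probe set, scaling, variance model and fold.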

Additional observations from a re-analysis of the deposited data

How the results depend on the processing

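Under each of 23 alternative fits, limma called 0 genes in either direction, and the smallest adjusted p ran from 0.172 (array weights) to 1.0. These included leaving out each of the 9 arrays, each genotype, the pools of 2 months, other filters, probe set choices and scalings. Genes with an unadjusted p under 0.05 numbered 240 to 823, and 619 with the 6 later arrays alone, which leave 2 residual degrees of freedom. The fitted differences of 26 named genes kept their sign under each alternative that gave a value. These genes had been chosen for one sign in all genotypes on the same arrays, so that outcome was largely fixed by the choice. With the mean of all probe sets, the difference of Ighm was 1.01 in place of 2.45.

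Counts of 2-fold genes moved with the threshold and the probe set. With 3-fold in place of 2-fold, 0 genes were higher and 0 lower in all 3 genotypes, and the counts higher and lower were 70 and 16 in wild type, 10 and 9 in E7, and 11 and 21 in RET-PTC. With the mean of all probe sets, 0 genes were higher and 1 lower in all 3 genotypes, and 60, 22 and 47 were lower in wild type, E7 and RET-PTC. With the probe set of largest variance, 219 were lower in wild type. With values as deposited, chosen after the data were seen, 2 genes were higher in all 3 genotypes. Of 851 list medians recomputed, 57 moved by more than the spread between genotypes. The cause was not tested in any of these.

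Signal near the plateau of 4 limits what can be read for dim genes, and 1 pool per genotype and age leaves no measure of the spread between like pools.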

Other observations

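Genes of the Y chromosome, which report on the share of male tissue in a pool, differed between the ages. Eif2s3y was at 8.90, 8.62 and 8.06 at 6 months and at 6.68, 9.68 and 7.10 at 10 months in wild type, E7 and RET-PTC. Kdm5d was at 5.95, 5.92 and 5.09 and then at 3.78, 6.77 and 4.33. Both were lower at 10 months in wild type and RET-PTC and higher in E7. Xist, the RNA of the inactive X, was at 10.91, 12.50 and 11.45 and then at 11.52, 12.03 and 11.58 by the probe set used, and the other 2 probe sets gave -0.74 and -0.61 in wild type where this one gave 0.62. The part of sex in the other differences was not tested.

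Clock genes, whose level depends on the time of day, were close at 6 and 10 months and far from the pools of 2 months. Dbp was at 8.95, 8.73 and 10.07 at 2 months, at 13.09, 13.64 and 12.97 at 6 months and at 13.45, 14.04 and 12.84 at 10 months. The median difference of 15 clock genes between 10 and 6 months was 0.08.

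Genes of neutrophils and mast cells were uneven. S100a8, a gene of the neutrophil list, was at 5.24, 10.18 and 5.34 at 6 months and at 8.47, 8.62 and 6.50 at 10 months. Mpo, Elane and Camp, also on that list, were under 4 on all 9 arrays. The mast cell protease genes Tpsab1 and Cpa3 were above 4 mainly in RET-PTC, at 6.73 and 7.47 at 6 months and 4.54 and 6.38 at 10 months.

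A list of surfactant and other genes known from RET-PTC tumours was lower more often than higher at 10 months in that genotype. Of 12 genes tested, 8 were lower in RET-PTC, with a median of -0.19. Over all genes, 41.4% were lower in RET-PTC and the median was 0.03. Sftpa1, a surfactant protein, was at 9.83 and 9.26, Sprr1a at 9.55 and 9.33 and Csn3, a casein, at 8.06 and 7.70 in RET-PTC, and all 3 were under 4 in the other genotypes.

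Genes of fat differed little with age as a list, and those of brown fat differed more in wild type. Over 14 adipocyte genes the medians were -0.03, 0.03 and 0.15, and Fabp4, a fatty acid carrier, was at 14.61 and 14.74 in wild type. Over 11 brown adipocyte genes the medians were -0.47, -0.06 and 0.26, with 9 lower in wild type and 8 higher in RET-PTC. Over all genes, 52.0% were lower in wild type and 56.3% higher in RET-PTC. Cidea, a lipid droplet gene on both lists, was at 11.42, 3.85 and 9.27 at 6 months and at 10.95, 4.59 and 9.72 at 10 months.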
